A study of Arabidopsis thaliana and Cucumis sativus and Glycine max with 60 samples.

Results

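The monolignol synthesis enzymes described here are 10 Arabidopsis genes, among them PAL1, PAL2, PAL4, C4H, 4CL1, 4CL2, CCoAOMT1, CCR1 and CAD5. They were chosen by name, as genes of known enzymes of this pathway. They are 10 of the 33550 Arabidopsis genes in a table of root expression values, and each was measured in 9 libraries. The series sequenced mRNA from zones of the seedling primary root in 7 vascular plants, and the Arabidopsis samples are from the cultivar Columbia, with no transgene, mutation or treatment named. Root tips were dissected 4 days after plating on agarose medium in constant light into 3 zones, named meristematic (MZ), elongation (EZ) and differentiation (DZ), with 3 libraries of each that the design text calls biological replicates. Each library holds all cell types of its piece of root, so fewer cells of a type and less RNA per cell cannot be told apart in any of the values below.

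Monolignols are the alcohols that plants couple into lignin, the polymer that stiffens and waterproofs the walls of xylem vessels and that also forms the Casparian strip of the root endodermis. The pathway starts from phenylalanine. PAL (phenylalanine ammonia-lyase) removes its amino group, C4H (cinnamate 4-hydroxylase, a cytochrome P450) adds a ring hydroxyl, and 4CL (4-coumarate:CoA ligase) activates the acid as a CoA ester, steps that the flavonoids, coumarins and suberin aromatics share with lignin. CCoAOMT (caffeoyl-CoA O-methyltransferase) then methylates the ring, CCR (cinnamoyl-CoA reductase) reduces the CoA ester to an aldehyde, and CAD (cinnamyl alcohol dehydrogenase) reduces the aldehyde to the alcohol. Many promoters of this pathway in seed plants are known to carry AC elements, short sequences bound by MYB transcription factors.

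All 10 genes were expressed least in MZ and most in DZ. For each gene every MZ library lay below every EZ library, and every EZ library below every DZ library, an order that 13.3% of the 19640 genes tested also had. The summed level of the 10 genes was 162, 149 and 393 RPKM (reads scaled to gene length and to all mapped reads of the library) in the MZ libraries, 1036, 917 and 4114 RPKM in the EZ libraries and 6936, 8430 and 8480 RPKM in the DZ libraries. As a share of the summed RPKM of all Arabidopsis genes this was 0.0161%, 0.0155% and 0.0366% in MZ, 0.111%, 0.105% and 0.444% in EZ and 0.753%, 0.928% and 0.881% in DZ. CCoAOMT1 made up between 31.3% and 54.5% of the 10 genes' sum in the 9 libraries.

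**Figure D1:**
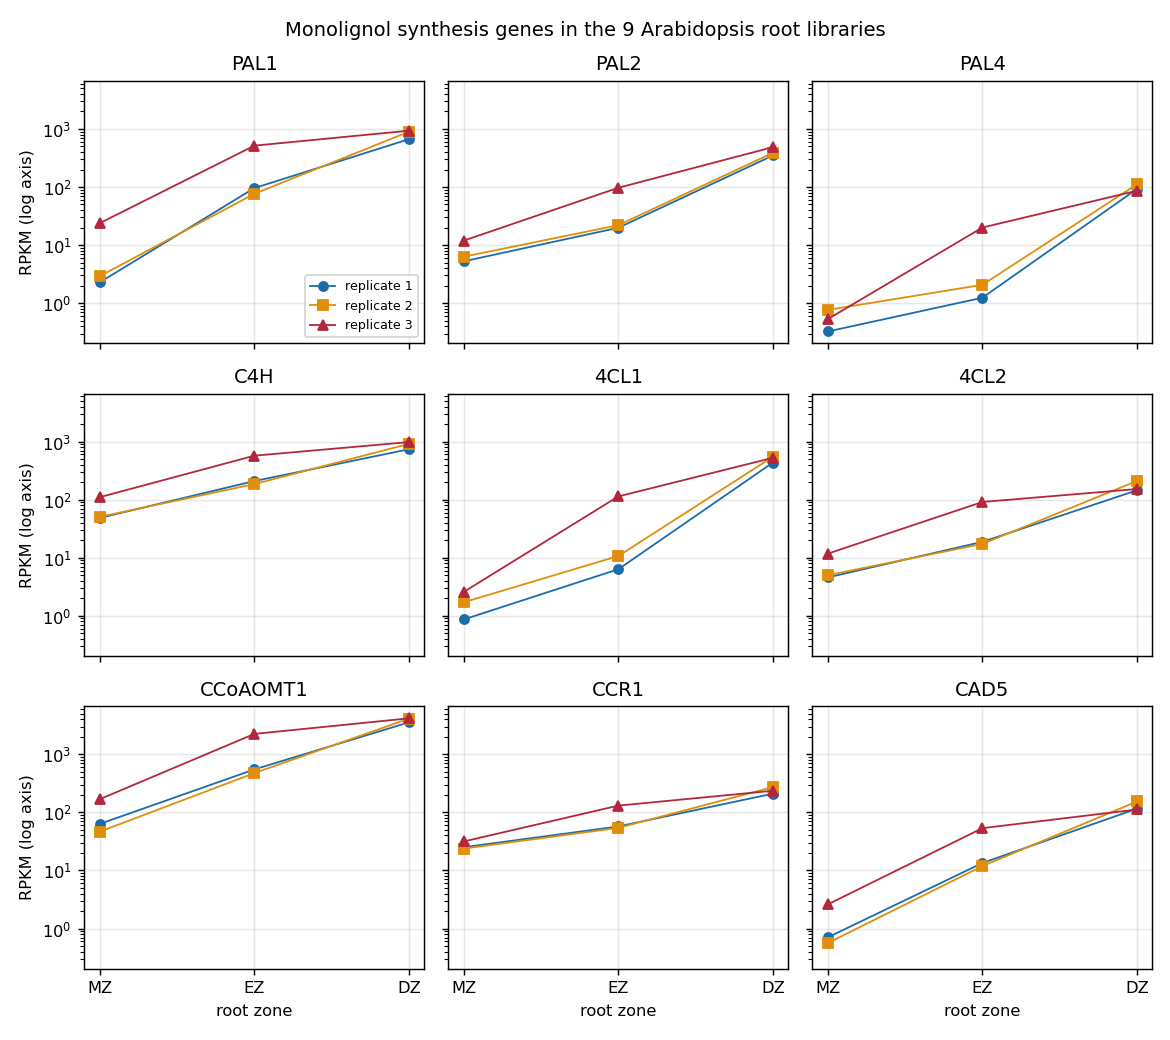
RPKM (log axis) of 9 of the 10 genes in the 3 zones. Each point is 1 library, and lines join libraries with the same replicate number. Every gene shown rises from MZ through EZ to DZ under every number, and the EZ library numbered 3 lies above the other 2 EZ libraries in all 9 panels.

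The zones were checked against marker genes. The summed level of 4 meristem markers (PLT1, PLT2, CYCB1;1 and KNOLLE) was 184 to 243 RPKM in MZ, 6.72 to 35.5 RPKM in EZ and 1.68 to 32.4 RPKM in DZ. In DZ replicate 1 it was 32.4 RPKM, near the 35.5 and 32.6 RPKM of EZ replicates 1 and 2, against 6.64 and 1.68 RPKM in the other DZ libraries. The sum of 3 root cap markers was 6.18 RPKM there, against 0.192 and 0.0377 RPKM. EZ replicate 3 and, to a smaller degree, MZ replicate 3 also stood apart from the others of their zone. The sum of 6 xylem markers was 60.6 and 46.8 RPKM in EZ replicates 1 and 2 and 256 RPKM in EZ replicate 3, against 312 to 363 RPKM in DZ. The sum of 6 endodermis markers was 75.9, 83.2 and 1020 RPKM in the EZ libraries. In MZ the xylem sum was 4.54, 3.71 and 8.90 RPKM and the endodermis sum 13.5, 12.8 and 57.4 RPKM, again highest in replicate 3. By the spacing of the low values, libraries numbered 1 had about 7.04 to 7.52 M reads each and the others 18.9 to 24.9 M.

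Relative to the mean of the other EZ libraries, the level in EZ replicate 3 was 2.35-fold to 13.3-fold higher over the 10 genes, while the median over all 16592 genes compared was 0.874-fold and the 95th percentile 3.47-fold. In MZ replicate 3 the 10 genes were at 0.973-fold to 9.18-fold of the mean of the other MZ libraries. Over all 16533 genes compared there the median was 0.978-fold and the 95th percentile 1.66-fold, and only PAL4 and CCR1 lay under that percentile. Results of the 10 genes and of the other enzymes on EZ are therefore given with and without EZ replicate 3, and the part of the marker differences in them was not tested. The fits without EZ replicate 3 keep MZ replicate 3.

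The sequence upstream of each gene was read from the TAIR10.1 assembly with its RefSeq annotation, as the 300 bases before the annotated start, and searched on both strands for the letters ACCTACC (known as element AC-I), then ACCAACC (element AC-II) and then ACCTAAC (element AC-III). No match overlapped another in the windows of the 10 genes. These letters were present upstream of 4 of the 10 genes and of 7.16% of the 27443 genes with such a window. By element the shares over all genes were 1.33% for AC-I, 3.18% for AC-II and 2.93% for AC-III, and the counts among the 10 genes were 1, 3 and 0. CCoAOMT1 had ACCTACC beginning 213 bases before its start, and CCR1 and CAD5 had ACCAACC beginning 14 and 238 bases before theirs. The windows are shown because these 3 genes take the later steps of the pathway and carry the element, which is in capitals. They are chr4:16310109-16310408 (plus strand) for CCoAOMT1, chr1:5478406-5478602 (plus strand) for CCR1, cut where a neighbouring gene begins, and chr4:16388941-16389240 (minus strand, printed as read in the direction of the gene) for CAD5.
CCoAOMT1: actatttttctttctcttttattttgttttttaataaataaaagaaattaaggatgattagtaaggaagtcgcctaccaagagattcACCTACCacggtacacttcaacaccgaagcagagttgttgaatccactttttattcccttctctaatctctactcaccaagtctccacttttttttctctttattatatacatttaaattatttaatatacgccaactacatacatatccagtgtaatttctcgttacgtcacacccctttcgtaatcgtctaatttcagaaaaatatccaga
CCR1: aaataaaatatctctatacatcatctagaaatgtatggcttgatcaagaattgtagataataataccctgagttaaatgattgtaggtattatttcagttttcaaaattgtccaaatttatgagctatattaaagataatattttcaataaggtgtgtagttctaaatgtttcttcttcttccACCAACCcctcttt
CAD5: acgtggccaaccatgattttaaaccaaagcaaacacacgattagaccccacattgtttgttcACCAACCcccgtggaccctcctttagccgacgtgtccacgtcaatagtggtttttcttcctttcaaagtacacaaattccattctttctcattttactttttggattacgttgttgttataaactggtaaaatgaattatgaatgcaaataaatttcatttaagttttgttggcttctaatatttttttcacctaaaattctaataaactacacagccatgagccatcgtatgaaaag
The fourth gene, 4CL2, had ACCAACC beginning 140 and 31 bases before its start, but all but 28 bases of its window lie within the annotated extent of a neighbouring gene. No match says only that these letters are not in the window searched, and a match is a description of the sequence.

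The 3 PAL genes, which open the pathway, were called higher over both steps, apart from PAL4 over the first. PAL1 (AT2G37040, chr2:15557367-15560755, minus strand) was at 2.28, 2.91 and 23.8 RPKM in MZ, at 95.7, 76.4 and 515 RPKM in EZ and at 666, 894 and 932 RPKM in DZ. Its MZ and EZ values were highest in the libraries numbered 3, and no zone overlapped another. In a limma fit of log2(RPKM + 1) over the 9 libraries, adjusted over all genes tested, PAL1 rose by a log2 change of 4.52 ± 0.88 (SE, adjusted p = 0.00340) from MZ to EZ and of 2.39 ± 0.88 (adjusted p = 0.0480) from EZ to DZ. Without EZ replicate 3 these were 3.66 ± 0.77 and 3.25 ± 0.77, and the second passed with an adjusted p of 0.00671. The rise from EZ to DZ was not called, however, under 9 of the 16 alternatives, among them the omission of either other EZ library or of any DZ library, with an adjusted p of up to 0.157.

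PAL2 (AT3G53260, chr3:19744018-19747114, minus strand) was at 5.25, 6.30 and 11.9 RPKM in MZ, 19.9, 22.0 and 96.9 RPKM in EZ and 349, 388 and 486 RPKM in DZ. Its log2 change was 2.11 ± 0.56 (adjusted p = 0.0119) over the first step and 3.49 ± 0.56 (adjusted p = 0.00117) over the second. Without EZ replicate 3 these were 1.39 ± 0.30 and 4.21 ± 0.30. In MZ the libraries numbered 1 and 2 held more PAL2 than PAL1, and in all EZ and DZ libraries PAL1 was the higher.

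PAL4 (AT3G10340, chr3:3203988-3208135, plus strand) was low in MZ, at 0.325, 0.765 and 0.530 RPKM. These values stand for about 6.28, 51.9 and 27.3 reads, and the first is near the limit of detection. PAL4 was at 1.24, 2.07 and 20.04 RPKM in EZ and at 92.7, 111 and 86.3 RPKM in DZ, and EZ replicate 3 was far above the other EZ libraries. The first step did not pass (log2 change 1.78 ± 0.71, adjusted p = 0.0586), and without EZ replicate 3 it was 0.78 ± 0.22, under the 2-fold a call required. The 1 RPKM added before the logarithm shrinks changes at such low values. In RPKM itself PAL4 rose from MZ to EZ by 3.81-fold under number 1, 2.70-fold under number 2 and 37.8-fold under number 3. The second step passed with 4.21 ± 0.71 (adjusted p = 0.00152) and 5.21 ± 0.22 without that library.

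The coding sequences of PAL1 and PAL2 are 82.6% identical in a global alignment, and those of PAL1 and PAL4 70.9%, PAL2 and PAL4 71.8%. The longest run shared by PAL1 and PAL2 is 80 bases, from base 1171 to base 1250 of the PAL1 coding sequence. It is shown in the direction of the genes, in lower case throughout, because reads that lie within it cannot be told apart, and the authors' way of counting such reads is not stated in the labels.
PAL1 and PAL2: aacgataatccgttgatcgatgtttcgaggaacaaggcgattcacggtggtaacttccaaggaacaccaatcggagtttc

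C4H (AT2G30490, chr2:12993625-12996012, minus strand), the only gene of its enzyme in Arabidopsis, had the highest MZ level of the genes of the first 3 steps. It was at 48.4, 50.6 and 110 RPKM in MZ, 209, 185 and 572 RPKM in EZ and 738, 914 and 981 RPKM in DZ. The log2 change was 2.10 ± 0.46 (adjusted p = 0.00558) over the first step and 1.63 ± 0.46 (adjusted p = 0.0176) over the second. Without EZ replicate 3 it was 1.59 ± 0.36 and 2.14 ± 0.36. The second step missed the threshold when EZ replicate 1 or 2 or DZ replicate 2 or 3 was left out, with adjusted p-values of 0.0528 to 0.0674.

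4CL1 (AT1G51680, chr1:19158746-19161737, minus strand) had the largest change of the 10 genes between MZ and DZ. It was at 0.866, 1.71 and 2.58 RPKM in MZ, 6.34, 10.7 and 114 RPKM in EZ and 437, 549 and 526 RPKM in DZ. Its DZ level ranked 219th of all Arabidopsis genes and its MZ level 16256th. The log2 change was 3.03 ± 0.86 (adjusted p = 0.0163) over the first step, 4.55 ± 0.86 (adjusted p = 0.00273) over the second and 7.58 ± 0.86 (adjusted p = 9.96e-05) from MZ to DZ, where it ranked 55th of all genes tested. Without EZ replicate 3 the steps were 1.82 ± 0.30 and 5.76 ± 0.30, and without MZ replicate 1 the first did not pass (adjusted p = 0.0575).

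4CL2 (AT3G21240, chr3:7454269-7457404, minus strand), the second ligase gene of the pathway, rose less. It was at 4.58, 5.01 and 11.8 RPKM in MZ, 18.8, 17.3 and 91.3 RPKM in EZ and 145, 210 and 153 RPKM in DZ. Its log2 change was 2.10 ± 0.60 (adjusted p = 0.0166) and 2.38 ± 0.60 (adjusted p = 0.0103) over the steps, or 1.34 ± 0.35 and 3.14 ± 0.35 without EZ replicate 3. Without MZ replicate 1 or MZ replicate 2 the first step did not pass, with adjusted p-values of 0.0605 and 0.0575. In MZ 4CL2 was the higher of the 2 ligase genes in all 3 libraries, and in DZ 4CL1 was the higher in all 3.

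The methyltransferase CCoAOMT1 (AT4G34050, chr4:16310409-16312308, plus strand), which turns caffeoyl-CoA into feruloyl-CoA, was the most abundant of the 10 genes in 8 of the 9 libraries. It was at 63.2, 46.4 and 168 RPKM in MZ, 548, 474 and 2242 RPKM in EZ and 3551, 4110 and 4159 RPKM in DZ, and its mean DZ level was the 7th highest of all Arabidopsis genes. In MZ replicate 2 C4H was slightly higher. The log2 change was 3.38 ± 0.64 (adjusted p = 0.00297) over the first step and 2.23 ± 0.64 (adjusted p = 0.0177) over the second, or 2.67 ± 0.48 and 2.94 ± 0.48 without EZ replicate 3. Leaving out EZ replicate 1 or 2 or DZ replicate 2 or 3 moved the adjusted p of the second step to between 0.0506 and 0.0680.

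CCR1 (AT1G15950, chr1:5478603-5482180, plus strand), the reductase whose upstream sequence is given above, had the smallest change between MZ and DZ. It was at 25.1, 23.8 and 31.6 RPKM in MZ, 57.2, 54.0 and 131 RPKM in EZ and 210, 273 and 236 RPKM in DZ. The log2 change was 1.44 ± 0.32 (adjusted p = 0.00575) over the first step and 1.67 ± 0.32 (adjusted p = 0.00285) over the second, or 1.04 ± 0.18 and 2.08 ± 0.18 without EZ replicate 3. From MZ to DZ it was 3.12 ± 0.32 (adjusted p = 6.31e-05).

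CAD5 (AT4G34230, chr4:16386631-16388940, minus strand), which makes the monolignols themselves, was at 0.705, 0.563 and 2.60 RPKM in MZ, 13.4, 11.9 and 53.5 RPKM in EZ and 116, 154 and 112 RPKM in DZ. The log2 change was 3.35 ± 0.55 (adjusted p = 0.00172) and then 2.55 ± 0.55 (adjusted p = 0.00482), or 2.68 ± 0.35 and 3.22 ± 0.35 without EZ replicate 3. The lowest MZ values rest on about 8.07 reads in replicate 1 and 22.6 reads in replicate 2.

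Counted together, 9 of the 10 genes were called higher in EZ than in MZ, at an adjusted p under 0.05 and at least 2-fold, where 18.3% of all genes tested were called higher and 20.4% lower. From EZ to DZ all 10 were called higher, against 19.6% of all genes higher and 16.4% lower. Between MZ and DZ all 10 were called higher, against 29.8% higher and 32.3% lower. The 9 genes called higher in both steps compare with 6.39% of all genes. The median log2 change of the 10 genes was 2.40, 2.47 and 5.60 in the order of these comparisons, and 0.03, -0.13 and -0.16 over all genes tested. Without EZ replicate 3 the members' medians of the first and second steps were 1.71 and 3.23.

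**Figure D2:**
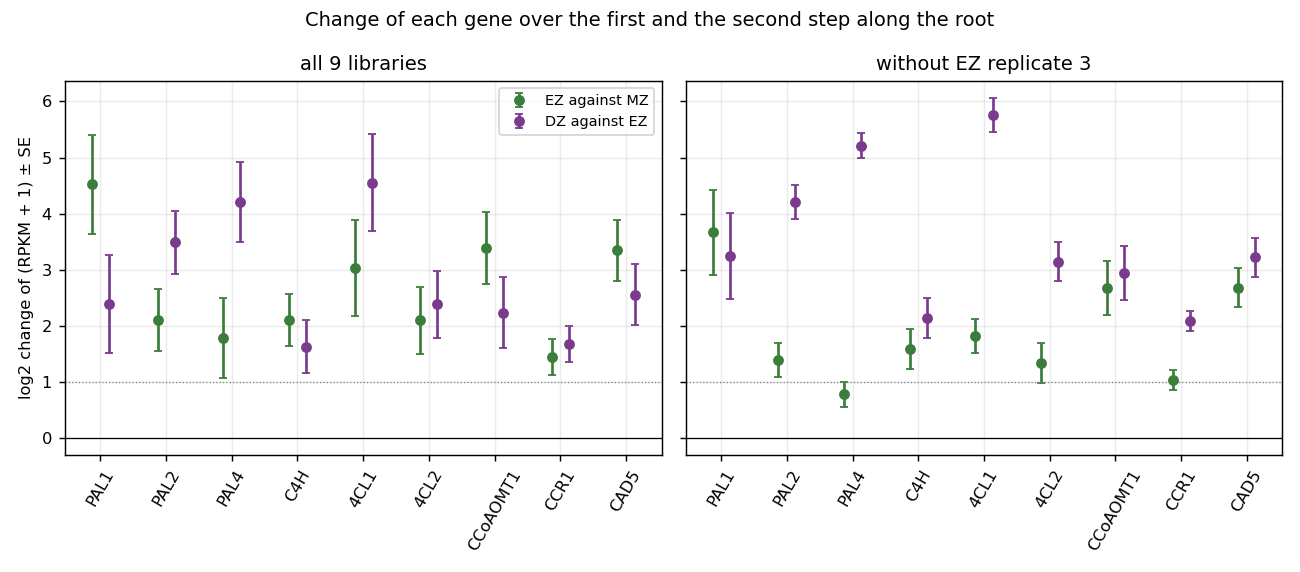
Log2 change of (RPKM + 1) of 9 of the 10 genes with its standard error, from MZ to EZ and from EZ to DZ, with all 9 libraries (left) and without EZ replicate 3 (right). The dotted line marks 2-fold. Without that library the first step of 4CL1 is 1.82 and its second 5.76, and the second step is the larger in all genes shown except PAL1. That fit keeps MZ replicate 3. Without all 3 libraries numbered 3, which is not drawn, CCoAOMT1 also had the larger first step (3.21 against 2.90).

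Within libraries of the same number the median fold of the 10 genes from MZ to EZ was 4.99 under number 1, 4.85 under number 2 and 11.4 under number 3. From EZ to DZ it was 8.18, 12.5 and 1.98. Under numbers 1 and 2 the second step was thus the larger by this median, and under number 3 the first. Single genes differed from the median. PAL1, CCoAOMT1 and CAD5 had the larger first step under numbers 1 and 2 as well, and C4H under number 1. For CAD5 the folds were 19.05 and then 8.63 under number 1, and 21.1 and then 12.95 under number 2. From MZ to DZ the median fold was 61.3, 83.9 and 33.2, and the smallest fold of any gene under any number was 7.47.

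Whether a gene changed more over the second step than over the first was tested as a difference of the steps in the same fit. None of the 10 genes was called in either direction with all 9 libraries, where 13.9% of all genes were called higher and 16.4% lower, and the differences ran from -2.13 ± 1.52 for PAL1 to 2.43 ± 1.23 for PAL4 on the log2 scale. This depended on EZ replicate 3. Without it, PAL2, PAL4, 4CL1 and CCR1 were called higher over the second step, against 17.6% of all genes, with differences of 2.82 ± 0.54, 4.44 ± 0.39, 3.94 ± 0.54 and 1.04 ± 0.32. Without all 3 libraries numbered 3, 5 genes were called higher, PAL2, PAL4, 4CL1 and 4CL2 among them, against 15.1% of all genes, and PAL1 was called lower (-1.44 ± 0.38, adjusted p = 0.0294). C4H, CCoAOMT1 and CAD5 were called under neither.

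The place of each library between the MZ and DZ means of a gene, with 0 at the MZ mean and 1 at the DZ mean, shows the same library. It was taken on log2(RPKM + 1), where the added 1 RPKM shifts the place of low genes. The median place over the 10 genes was 0.355 in EZ replicate 1, 0.337 in EZ replicate 2 and 0.768 in EZ replicate 3. Over the 5855 genes called higher in DZ than in MZ it was 0.350, 0.305 and 0.647. Within each EZ library PAL1 was farthest along, at 0.553, 0.507 and 0.903, and PAL4 least far, at 0.092, 0.168 and 0.631. In EZ replicate 3 PAL2 was nearly level with PAL4, at 0.634.

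**Figure D3:**
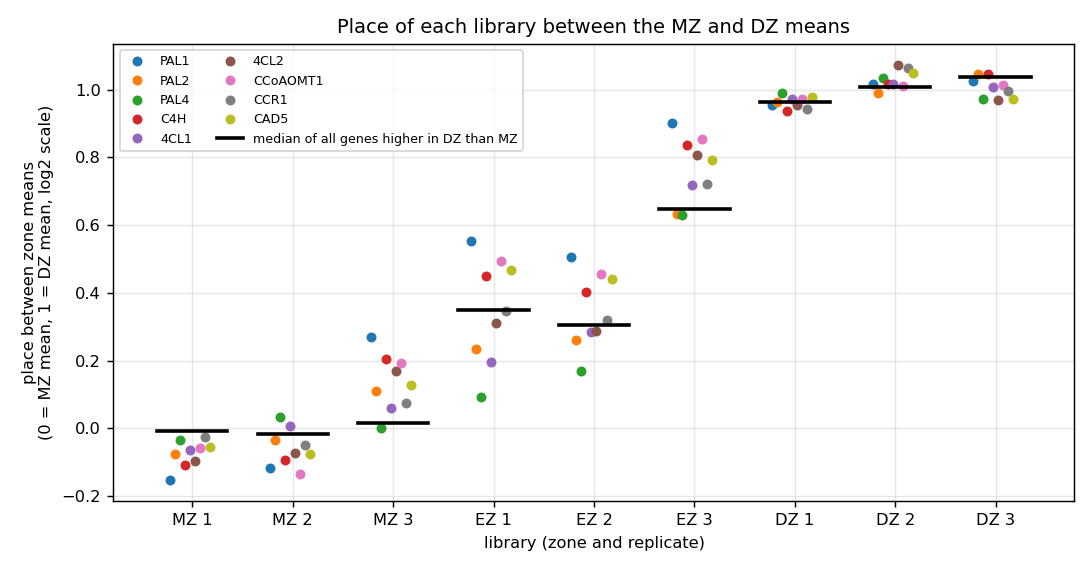
Place of each library between the MZ mean (0) and the DZ mean (1) of each gene on the scale of log2(RPKM + 1). Points are 9 of the 10 genes and black bars the median of all genes called higher in DZ than in MZ. PAL1 is the highest point and PAL4 the lowest in all 3 EZ libraries, with PAL2 nearly level with PAL4 in EZ replicate 3.

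The balance between genes of one enzyme differed between zones for 4CL1 and 4CL2 and for PAL1 and PAL2 when all arrangements of the libraries were counted. Neither passed when the replicate numbers were kept as a block, where few arrangements limit the test. Each ratio is the log2 ratio of (RPKM + 1) of the genes, so the added 1 RPKM shifts it where a gene is low. The log2 ratio of 4CL1 to 4CL2 was -1.58, -1.15 and -1.83 in MZ, -1.43, -0.64 and 0.32 in EZ and 1.58, 1.38 and 1.78 in DZ. It differed between zones in an exact permutation test over all 1680 arrangements of the libraries (adjusted p = 0.0268 over 5 ratios, one-sided in the spread between zones). The ratio of PAL1 to PAL2 was -0.93, -0.90 and 0.94 in MZ, 2.21, 1.75 and 2.40 in EZ and 0.93, 1.203 and 0.94 in DZ (exact permutation test, adjusted p = 0.0268). It was thus highest in EZ, and MZ replicate 3 lay at the DZ level. PAL1 to PAL4 (adjusted p = 0.0714) and PAL2 to PAL4 (adjusted p = 0.275) did not pass in the same exact test. With single libraries left out, 4CL1 to 4CL2 passed in 6 of 9 omissions (exact test, adjusted p up to 0.0714), all but those of EZ replicate 3 and DZ replicates 1 and 3. PAL1 to PAL2 passed in 3 of 9, those of the MZ libraries (adjusted p up to 0.0774), and PAL1 to PAL4 in that of MZ replicate 3 (adjusted p = 0.00893). No ratio passed when zones were permuted only within each replicate number (exact test, adjusted p = 0.0694 for both 4CL1 to 4CL2 and PAL1 to PAL2 and 0.333 for PAL2 to PAL4), where 216 arrangements allow no p under 0.0278. Before adjustment 4CL1 to 4CL2 was at this smallest p and PAL1 to PAL2 at 0.0556 in that exact test. A single ratio at the smallest p cannot pass after adjustment over 5 ratios, so the block test cannot decide for 4CL1 to 4CL2. On this scale PAL1 to PAL4 was highest in EZ within each number, at 5.43, 4.66 and 4.62. It was at 1.31, 1.15 and 4.02 in MZ and 2.83, 2.996 and 3.42 in DZ. The exact test within replicate numbers gave an adjusted p of 0.0694. In RPKM itself, from MZ to EZ under number 3, PAL1 rose 21.6-fold and PAL4 37.8-fold, so there the plain ratio was lower in EZ. Under numbers 1 and 2 PAL1 rose more in RPKM too, 41.9-fold against 3.81-fold and 26.3-fold against 2.70-fold.

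As shares of the summed RPKM of each family, 4CL1 was at 13.6% ± 5.3 (SD, n = 3) in MZ, 23.3% ± 14.9 in EZ and 67.8% ± 2.6 in DZ. In EZ it was at 11.8%, 18.1% and 40.1%, highest again in replicate 3. 4CL3, a ligase known for flavonoid synthesis in Arabidopsis, had 46.1%, 46.5% and 21.1% of the family sum in EZ and 2.56% to 4.46% in DZ. PAL1 had 41.3% ± 21.1 of the PAL sum in MZ, 79.8% ± 3.3 in EZ and 62.1% ± 2.0 in DZ. CCR2, a reductase known from pathogen responses, had 0.614% to 1.998% of the CCR sum in the MZ and 0.520% to 1.92% in the EZ libraries, and 16.4% to 28.1% in DZ. CAD5 was the minor CAD gene in all libraries, with 2.58% ± 0.98 of the sum of CAD4 and CAD5 in MZ, 9.25% ± 0.67 in EZ and 13.2% ± 3.3 in DZ. The coding sequences of 4CL1 and 4CL2 are 79.4% identical, those of CCR1 and CCR2 75.8% and those of CAD4 and CAD5 74.0%. Their longest identical runs are 35, 20 and 32 bases, and how many reads could not be told apart was not estimated.

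**Figure D4:**
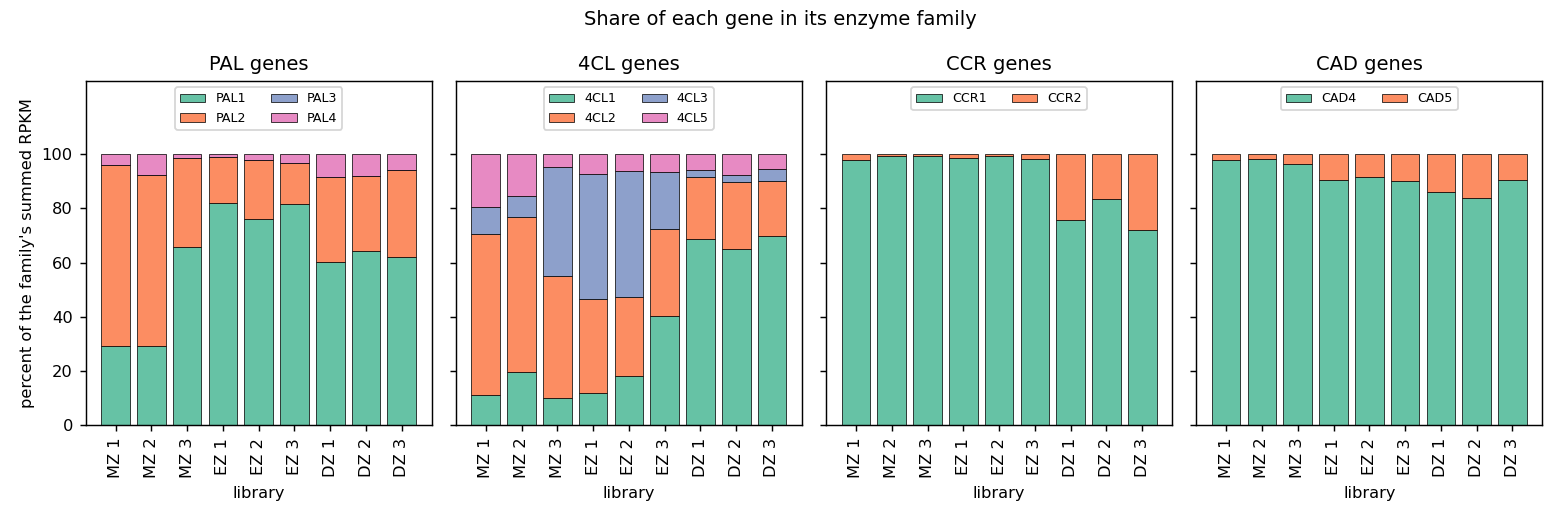
Percent of each family's summed RPKM held by each gene in the 9 libraries, for the PAL, 4CL, CCR and CAD genes. 4CL1 holds 64.9% to 69.7% of the 4CL sum in DZ and at most 19.6% in MZ, and CCR2 reaches 16.4% or more in the DZ libraries.

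The other enzymes of the pathway were followed as a list of 12 genes, of which 11 had enough signal to be tested. PAL3 was left out, with no library above 0.0373 RPKM. Of the 11, 8 were called higher over the first step, 8 over the second and 10 from MZ to DZ, against 18.3%, 19.6% and 29.8% of all genes. None of the 11 was called lower, against 20.4%, 16.4% and 32.3% of all genes, and the medians were 1.55, 1.87 and 4.31 on the log2 scale. The counts were 6 over the first step and 9 over the second without EZ replicate 3. HCT and C3H1, which add and use the shikimate ester on the way to caffeoyl-CoA, rose by 4.34 ± 0.49 and 5.09 ± 0.66 from MZ to DZ. CSE, the caffeoyl shikimate esterase, rose by 2.10 ± 0.40 and 4CL5 by 4.31 ± 0.51. REF1, the aldehyde dehydrogenase that makes ferulic and sinapic acids, rose by 2.90 ± 0.24.

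CAD4 was at 29.97, 31.3 and 68.4 RPKM in MZ, 128.8, 127.8 and 492 RPKM in EZ and 714, 807 and 1063 RPKM in DZ, above CAD5 in every library, and rose by 4.37 ± 0.54. CCR2 and CCoAOMT7 moved in the second step. CCR2 was at 0.181 to 0.512 RPKM in MZ, 0.877, 0.283 and 2.55 RPKM in EZ and 68.0, 53.7 and 92.1 RPKM in DZ. CCoAOMT7, a methyltransferase related to CCoAOMT1, was at 0.346 to 0.392 RPKM in MZ, 0.249, 0.406 and 2.92 RPKM in EZ and 77.8, 102 and 116 RPKM in DZ. Both changed more over the second step than the first, by 4.44 ± 0.65 and 5.21 ± 0.70 on the log2 scale (adjusted p = 0.00198 and 0.00159). F5H1, the hydroxylase that leads to syringyl lignin, was at 2.21 to 3.35 RPKM in MZ, 0.615 to 1.02 RPKM in EZ and 3.21, 12.6 and 3.02 RPKM in DZ. It was called higher over the second step (1.77 ± 0.44) but not between MZ and DZ (0.66 ± 0.44, adjusted p = 0.189), and also changed more over the second step (2.88 ± 0.76, adjusted p = 0.0203). 4CL3 and F5H2 changed less over the second step than the first (-4.01 ± 1.24 and -2.72 ± 0.69). Without EZ replicate 3 these differences were 5.24 ± 0.50 for CCR2, 6.25 ± 0.37 for CCoAOMT7, 2.72 ± 0.89 for F5H1 and -1.72 ± 0.39 for F5H2, all still called, and -3.24 ± 1.38 for 4CL3, which was not (adjusted p = 0.104). HCT and 4CL5 were then called as well, at 2.82 ± 0.33 and 2.25 ± 0.43. 4CL3 rose by 2.89 ± 0.71 and F5H2, related to F5H1, by 2.64 ± 0.40 from MZ to DZ.

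Genes that supply the pathway were less uniform. Of 16 genes from the shikimate pathway to phenylalanine, 7 were called higher and 1 lower from MZ to DZ, against 29.8% and 32.3% of all genes tested, with a median log2 change of 0.93. ADT5, ADT4 and ADT3, arogenate dehydratases that make phenylalanine, rose by 3.83 ± 0.27, 3.03 ± 0.28 and 2.41 ± 0.27, while ADT2, of the same family, fell by 2.09 on the log2 scale (SE 0.32). DHS3, of the first shikimate step, rose by 2.56 ± 0.36. Of 6 genes of the methyl donor cycle, 3 were called higher from MZ to DZ, against 29.8% of all genes. These were SAHH2, SAM1 and MAT3, with log2 changes of 2.98 ± 0.61, 1.93 ± 0.19 and 1.79 ± 0.32, while MAT4 was called higher over the first step (1.14 ± 0.24) and lower over the second (-1.91 ± 0.24). Of 3 genes that feed electrons to the P450 enzymes, ATR2, a P450 reductase, rose by 2.16 ± 0.26 from MZ to DZ, while ATR1 and CB5D were not called (-0.30 ± 0.18 and 0.17 ± 0.19).

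Downstream of synthesis, 5 of the 6 genes of monolignol export and storage were called higher from MZ to DZ and 1 lower, against 29.8% and 32.3% of all genes. BGLU46 and BGLU45, glucosidases of monolignol glucosides, rose by 5.79 ± 0.62 and 2.51 ± 0.21, the p-coumaryl alcohol transporter ABCG29 by 4.67 ± 0.40 and the glucosyltransferase gene UGT72E3 by 4.67 ± 0.69. All 7 genes of lignin polymerisation were called higher from EZ to DZ and 2 of 7 from MZ to EZ, against 19.6% and 18.3% of all genes. These 2 counts were equal without EZ replicate 3. A larger change over the second step was called for 1 of the 7 with all libraries, against 13.9% of all genes, and for 7 without that library, against 17.6%. The peroxidase genes PRX72 and PRX64 rose by 8.50 ± 0.96 and 8.08 ± 1.02 from MZ to DZ, ESB1, a dirigent protein of the Casparian strip, by 7.42 ± 0.86 and the laccase LAC4 by 5.31 ± 0.62. PRX72 was at 2.28, 2.11 and 12.1 RPKM in MZ, 11.9, 11.9 and 150 RPKM in EZ and 1813, 1249 and 2804 RPKM in DZ.

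Among the branches that leave the pathway, ASFT, the feruloyl transferase of suberin, rose by 7.04 ± 0.95 from MZ to DZ. F6H1 and COSY of coumarin synthesis rose by 6.51 ± 0.61 and 3.72 ± 0.40, and the fourth gene of this list was too low to be tested. Of 4 F-box genes that target PAL for degradation, 3 were tested and 2 were called higher from MZ to DZ, against 29.8% of all genes. KFB50 rose by 1.52 ± 0.45 and KFB01 by 1.195 ± 0.22, while KFB20 was not called (0.47 ± 0.30). Of 11 MYB genes tied to lignin, 10 were tested and 8 were called higher from MZ to DZ, 6 over the first step and 7 over the second (5 and 8 without EZ replicate 3). With all libraries the shares over all genes were 29.8%, 18.3% and 19.6% in that order. MYB63 and MYB43, activators of lignin genes, rose by 5.03 ± 0.68 and 4.61 ± 0.44, and MYB4 and MYB7, of which MYB4 is a known repressor of C4H, by 6.33 ± 0.74 and 6.43 ± 0.79.

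Markers of lignified cell types moved with the 10 genes. All 6 xylem markers were called higher from MZ to DZ, against 29.8% of all genes tested, and their sum was 332, 363 and 312 RPKM in DZ. Among them XCP2, XCP1, CESA8 and CESA4 had log2 changes of 5.97 ± 0.56, 5.74 ± 0.62, 4.29 ± 0.55 and 3.88 ± 0.46. All 6 endodermis markers were called higher too, with CASP1, CASP2, CASP4 and CASP5 at 8.85 ± 1.05, 8.45 ± 1.02, 8.13 ± 0.96 and 7.97 ± 1.04, and a sum of 6681, 4968 and 11040 RPKM in DZ. The 3 root hair markers PRP3, EXPA7 and COBL9 rose by 8.05 ± 0.71, 7.59 ± 0.68 and 5.09 ± 0.32. The 4 meristem markers and the 3 root cap markers were all called lower, against 32.3% of all genes, KNOLLE by -4.28 ± 0.77 and BRN1 by -3.59 ± 0.53. The sum of the 3 leaf markers was 0.624 to 14.7 RPKM over the 9 libraries. No marker was listed at 0 in all 3 libraries of a zone. The part of these cell types in the changes of the 10 genes was not tested.

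**Figure D5:**
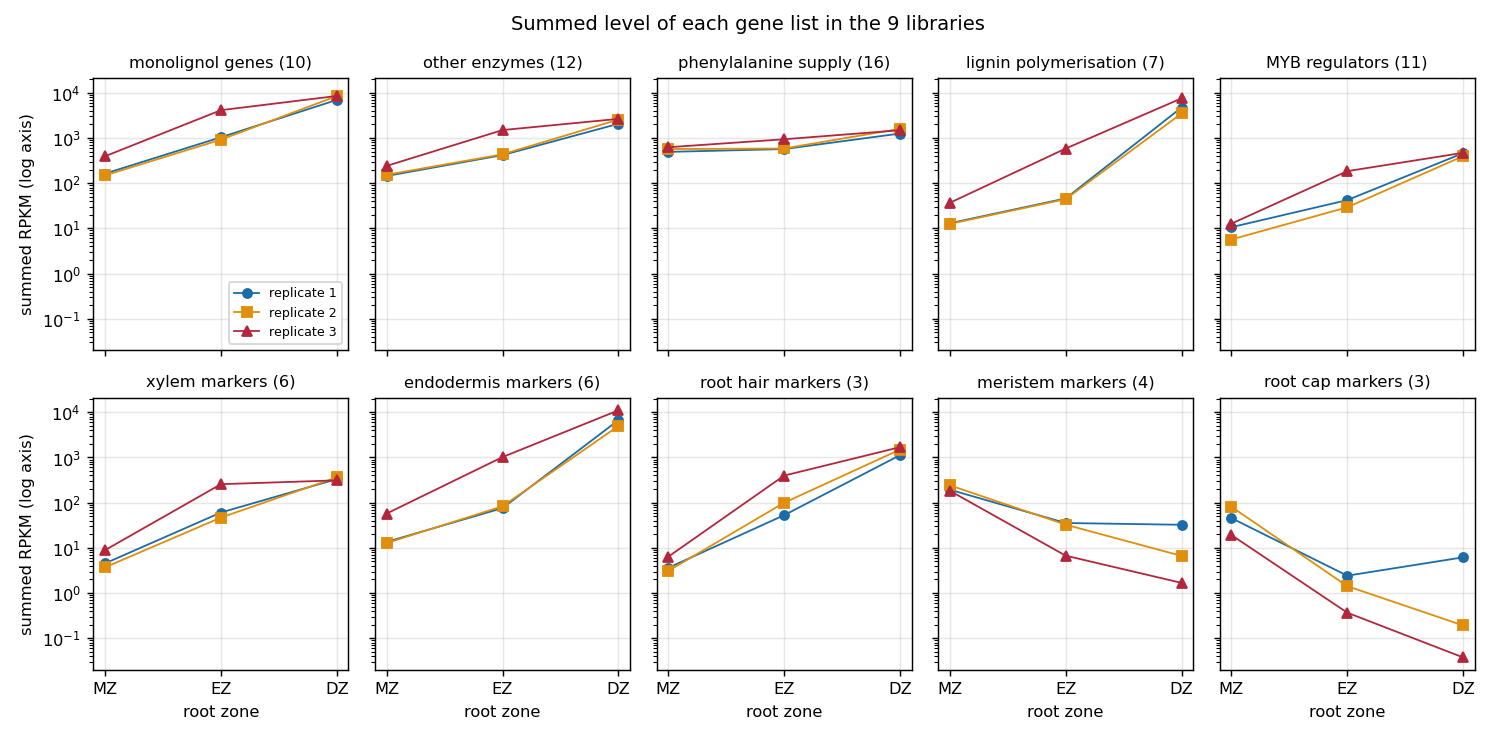
Summed RPKM (log axis) of each gene list by zone, with lines joining libraries of the same number. The number of genes in each list is in its title. EZ replicate 3 lies above the other EZ libraries for the xylem, endodermis and root hair markers and below them for the meristem and root cap markers.

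The 10 genes followed each other closely, but many other genes were nearer to their mean profile than some of the 10 were. By r with that profile, ranked over all genes tested, CCR1 was 4th and 4CL2 5th, while PAL1 was 698th and PAL4 1095th. Over the 9 libraries Pearson's r between the log2 values of 2 of them was 0.89 (PAL1 and PAL4) to 0.997 (C4H and CCoAOMT1), with a median of 0.985 over the 45 pairs. With the zone means taken out, r was 0.656 to 0.994 with a median of 0.943, and these values share the same libraries, the high EZ replicate 3 included. Among genes outside all lists, the 8 most like the mean profile of the 10 over the 9 libraries had r of 0.995 to 0.999. AT4G30350 (SMXL2) was the closest, at 6.75, 7.23 and 10.3 RPKM in MZ, 16.6, 15.3 and 35.7 RPKM in EZ and 49.2, 52.0 and 49.98 RPKM in DZ. It was followed by AT4G33730, the receptor kinase gene GSO1, the expansin EXPA18, ESK1 (also TBL29), RSH4, the tonoplast aquaporin TIP2;2 and AT1G34330, which RefSeq annotates as a transcribed pseudogene.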

How the data were processed

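The submitters' processing notes name the tools FastQC and TopHat2. Per the labels, Arabidopsis reads were mapped with the TAIR10 annotation. No source used here states the counting tool, its filters or whether strand was used. The authors deposited RPKM values, with no read counts. Each column stacks 1 library of each species, and Arabidopsis rows were found by their locus names. A second deposited table of joint zones was not used.

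For 1 of the 10 genes, which stays in the sums and counts, values of its own are not reported here. The 10 genes and all 16 gene lists were chosen with earlier results of these data known, so their directions are not independent evidence. Named are 9 of the 10 genes, up to 4 genes of each list with the largest change from MZ to DZ, all other pathway enzymes, and the 8 most alike genes.

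Zones were compared by limma 3.58.1 (R 4.3.3) after taking log2(RPKM + 1), which understates changes of low genes, with trended, robust variances and 1 fit over the 9 Arabidopsis libraries. A gene entered the test if 3 or more libraries had 1 RPKM or more (19640 genes), with Benjamini-Hochberg adjustment over all of them. A call needed an adjusted p under 0.05 and at least 2-fold. Ratios of paralogs were tested by exact permutation over zones, whose smallest p is 0.00357, and as an alternative added after seeing the data within each replicate number. The scripts were tested on simulated data. The labels do not say whether replicates came from separate batches of plants, and p-values measure the spread between these libraries.

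Replicate numbers come from the sample titles. Deviations from the zone means of same-numbered libraries correlated at 0.183 to 0.305 between MZ and EZ, 0.136 to 0.458 between EZ and DZ and 0.088 to 0.142 between MZ and DZ. Libraries of different zones and different numbers correlated at -0.433 to 0.224, which overlaps these ranges. The numbers were taken to pair the libraries for each step, but the main fit leaves the pairing out. A fit with the replicate number as a block was an alternative.

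Other alternatives were pseudocounts of 0.1 and 5, no filter, quantile normalization, omission of single libraries or of the 3 numbered 3, and a fit of the compared zones alone. Depth was estimated from the spacing of RPKM multiplied by transcript length. Sequences and positions are from RefSeq on TAIR10.1, read with Python 3.11.15 and aligned with Biopython 1.88.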

Additional observations from a re-analysis of the deposited data

How the results depend on the processing

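From MZ to DZ all 10 genes were called higher under all 16 alternatives. The count called higher ran from 7 to 10 over both the first and the second step. With the replicate numbers as a block for the pairing, the counts were 9, 10 and 10 for EZ against MZ, DZ against EZ and DZ against MZ, 0 for the difference of the steps, and no call on the 10 genes in these comparisons changed. Quantile normalization moved the median of all genes by at most -0.094.

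Pseudocount 5 gave 2304 genes higher and 2436 lower in EZ against MZ, and 1 of the 10 genes higher in the difference of the steps. Leaving out the 3 libraries numbered 3 gave 5. Leaving out single libraries gave 0 to 4, and 1670 to 3439 of all genes. The difference of the steps changed sign for 6 of the 9 genes shown, none called with all libraries. With single libraries left out it ran from -0.028 to 3.94 for 4CL1, -0.53 to 1.80 for 4CL2, -1.07 to 0.55 for C4H, -1.54 to 0.54 for CAD5, -0.21 to 1.04 for CCR1 and -1.97 to 0.27 for CCoAOMT1. It was 0.083 for C4H and 0.24 for CAD5 without the 3 libraries numbered 3, and 0.24 for CAD5 at pseudocount 5.

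Permuting zones within each replicate number, a block chosen after seeing the data, left the range between zone means of a log2 ratio at 3.10 for 4CL1 to 4CL2 and 2.42 for PAL1 to PAL2. Neither passed (exact test, adjusted p = 0.0694 in both), though 4CL1 to 4CL2 was at the smallest p before adjustment that this test allows. This range was 2.88 for PAL1 to PAL4 at pseudocount 5, where it passed (adjusted p = 0.00893). For PAL2 to PAL4 the highest zone became MZ at pseudocount 0.1 (1.53) and DZ at pseudocount 5 (0.84). This ratio passed in 1 of 12 settings (exact permutation test, adjusted p = 0.0357) and under no omission of a single library. With single libraries left out the range ran from 2.95 to 3.29 for 4CL1 to 4CL2, 2.10 to 3.04 for PAL1 to PAL2, 2.24 to 3.67 for PAL1 to PAL4 and 0.51 to 1.01 for PAL2 to PAL4. Tests with a library left out also hold fewer libraries, and the cause of these changes was not tested. Depth limits the MZ values of PAL4, 4CL1 and CAD5, at about 6.28, 13.6 and 8.07 reads in MZ replicate 1.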
